A study of Mus musculus with 12 samples.

Results

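The antioxidant enzyme genes examined here were the 6 peroxiredoxins Prdx1, Prdx2, Prdx3, Prdx4, Prdx5 and Prdx6, the glutathione peroxidases Gpx1 and Gpx4, and the superoxide dismutases Sod1 and Sod2. They were taken by gene symbol, 10 of the 23230 genes in the deposited table. All 10 were among the 11502 genes that had at least 1 FPKM in at least 1 library and were therefore tested. Their RNA was measured in mouse oocytes lacking the maternal RNA-binding proteins ZAR1 and ZAR2, and the question asked of each gene was whether its level differed between genotypes at 3 stages, and whether its change during meiotic maturation differed.

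The mice were of a C57BL6/ICR mixed strain. WT females carried neither mutation, and Zar1/2-null females carried CRISPR/Cas9 knockouts of Zar1 and Zar2 in all cells, so that the follicle around the oocyte was mutant as well. Growing oocytes came from females labelled 13.5 days old (12 days in the study's methods), GV oocytes (fully grown, with an intact germinal vesicle) from females of 21 days at 44 h after PMSG, and MII oocytes were ovulated oocytes taken 16 h after hCG from females of 21 to 23 days. The MII label gives the time of collection, and the table does not hold the meiotic state of each oocyte. The paper reports that ovulated oocytes of the double mutant were arrested in meiosis I, at metaphase or at telophase. MII is therefore used here for the time of collection, and the genotypes were not at the same meiotic stage there. The paper reports that WT oocytes held in meiosis I with nocodazole still degraded the selected transcripts it measured by RT-qPCR. The part of the arrest in the differences of the 10 genes at MII was not tested here. Each of the 6 groups had 2 Smart-seq2 libraries of 10 oocytes, and nothing in the labels says that the 2 libraries came from different animals, so the spread between them may be technical.

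Superoxide dismutases turn superoxide into hydrogen peroxide, and peroxiredoxins and glutathione peroxidases then reduce peroxides at the expense of thioredoxin or glutathione. Oocytes carry many mitochondria and store the mRNAs for these enzymes during growth. Transcription stops in the fully grown oocyte, after which mRNA levels change only through decay, and poly(A) tails are shortened or lengthened in the cytoplasm as meiosis resumes.

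The values were FPKM, read counts corrected for transcript length and for the reads of the library, and had been multiplied by the authors with a factor for each library, taken from the share of reads of an ERCC spike-in, which is a set of synthetic RNAs added to the lysate. The factors recovered from the table were 1 in both WT growing libraries and 0.225 to 0.283 in the 4 MII libraries. Direct comparison of stages therefore rests on the spike-in, whereas the factors at MII were close between genotypes (0.225 and 0.228 in WT, 0.283 and 0.252 in Zar1/2-null libraries). The table holds no read counts, so the depth behind a value is unknown and no counting interval is given. Replicate libraries correlated at 0.979 to 0.986 on the log2(FPKM + 1) scale across the genes tested (Pearson's r, a description across genes). Of 12 oocyte markers, 12 had at least 1 FPKM in at least 1 library, with Gdf9 at 643 FPKM or more in every library. Figla was at 0.276 and 0.687 FPKM in the WT MII libraries. The summed level of the 12 oocyte markers was 1416 to 1593 FPKM in WT MII and 4547 to 5036 FPKM in Zar1/2-null MII oocytes, where 10 of the 12 were called higher and 1 lower, and the part of this in the results at MII was not tested. Among 12 granulosa and cumulus markers only Fshr, Inha and Cyp19a1 reached 1 FPKM, Ptx3 was at 0 throughout and Foxl2 and Amh were at most 0.10 FPKM. Their summed level was 3.90 to 4.05 FPKM in WT MII and 6.02 to 7.22 FPKM in Zar1/2-null MII oocytes, and in growing oocytes 20.3 to 24.2 FPKM in WT and 5.67 to 10.2 FPKM in Zar1/2-null libraries. No red blood cell gene and 1 of 5 macrophage genes in the table reached 1 FPKM. Zar1l, the symbol for Zar2, was lower in Zar1/2-null oocytes at each stage (15.3 against 642 FPKM in growing oocytes). Zar1 itself was lower in growing and GV oocytes and higher at MII, at 190 and 194 FPKM in Zar1/2-null against 83.6 and 72.4 FPKM in WT oocytes.

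At MII, 7 of the 10 genes were higher in Zar1/2-null oocytes and none was lower, where 21.5% of all genes tested were higher and 10.3% lower. In order of size these were Gpx4, Sod1, Prdx4, Prdx5, Prdx2, Gpx1 and Sod2. Their log2 fold changes, on the log2(FPKM + 1) scale, ran from 4.72 down to 1.04. In GV oocytes 4 genes were lower, against 40.6% of all genes tested, and 0 were higher, against 2.83%. In growing oocytes only Prdx6 passed the test, in the lower direction, as did 24.4% of all genes. The fall between the GV and MII stages was larger in WT than in Zar1/2-null oocytes for 8 genes, and for 33.9% of all genes tested. These were the 7 genes higher at MII and Prdx6, which did not pass the test at MII and was lower in Zar1/2-null oocytes at GV. Prdx1 and Prdx3 were the exceptions: Prdx1 stayed high in both genotypes, and Prdx3 fell to between 1.01 and 2.17 FPKM in both.

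**Figure D1:**
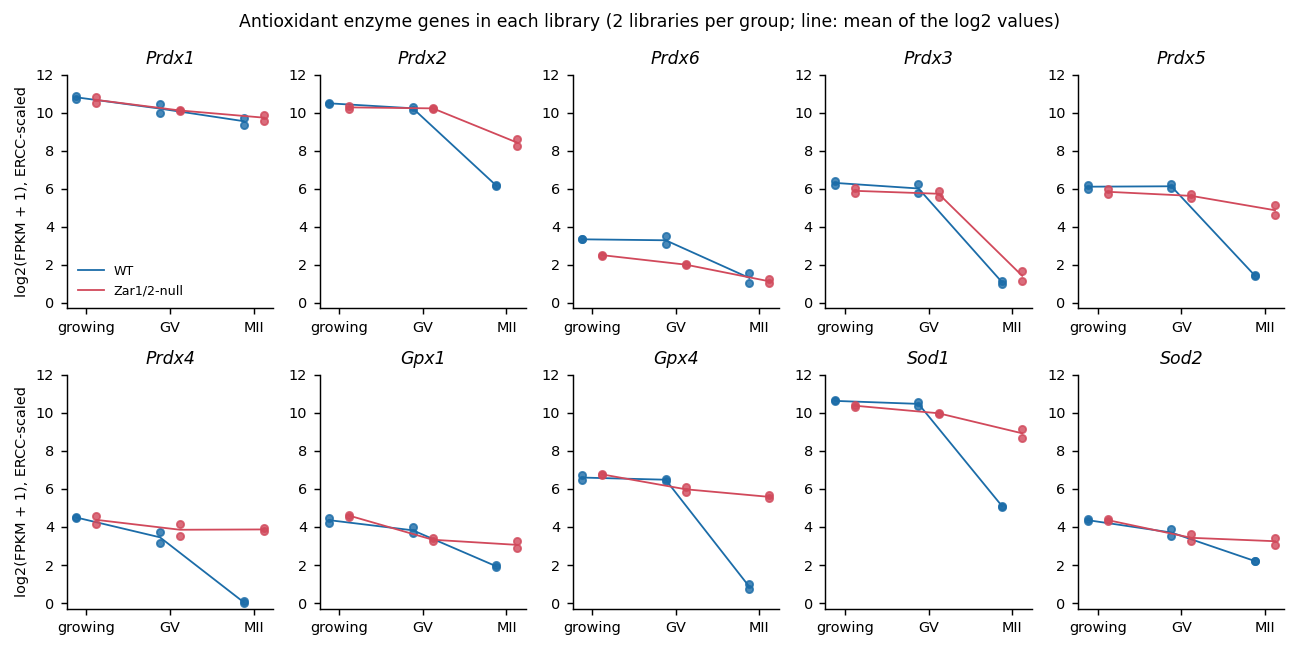
The y axes give log2(FPKM + 1) from the ERCC-scaled values for each of the 10 genes at the growing, GV and MII stages, with 1 point per library (2 per group), blue for WT and red for Zar1/2-null, and lines through the group means of the log2 values. The genotypes separate at MII for Prdx2, Prdx5, Prdx4, Gpx4 and Sod1 by over 2 log2 units, whereas Prdx1 stays above 9 in every library.

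The genes fell into 3 tiers of abundance, which FPKM allows to be compared since it is given per length. In WT GV oocytes, Sod1 (1533 and 1315 FPKM), Prdx1 (1381 and 1012 FPKM) and Prdx2 (1264 and 1130 FPKM) were among the 52 most abundant of the 11502 genes. Prdx1 overlapped with the other 2, and Sod1 and Prdx2 did not overlap. Gpx4 (91.3 and 85.9 FPKM) formed a middle tier with Prdx5 (74.0 and 63.9 FPKM) and Prdx3 (75.8 and 52.9 FPKM), and Prdx5 and Prdx3 overlapped. Gpx1, Sod2, Prdx4 and Prdx6 had 7.48 to 14.8 FPKM, and each overlapped with its neighbour in that order. Prdx1, Prdx2 and Sod1 together made up 93.4% to 94.9% of the summed FPKM of the 10 genes in the growing and GV libraries. In WT MII oocytes Prdx1 alone made up 88.2% and 85.1% of that sum, against 46.5% and 48.6% in Zar1/2-null MII oocytes.

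The annotated 3' ends of the transcripts are shown because Smart-seq2 primes on the poly(A) tail, and because the tail of a stored mRNA is formed and later extended at this end. The sequences are the last poly(A) signal hexamer of each 3' UTR (AATAAA or ATTAAA, in capitals, searched on the transcript strand within the last 50 bases), read from a protein-coding transcript annotation of the mm9 build, and each matched the mm9 genome at its coordinates. The first 5 are the genes with the largest differences at MII, and Prdx1 and Prdx3 are 2 of the 3 that did not pass the test.
Gpx4, chr10:79519154-79519183, plus strand: ctgccttgtgggAATAAAatgtagaaatgt
Sod1, chr16:90226538-90226567, plus strand: gctaccctcaaaccATTAAActgtaatctg
Prdx4, chrX:151758470-151758499, minus strand: ttggaccttctcAATAAAggtcattgtgtt
Prdx5, chr19:6981204-6981233, minus strand: ccatatttctgcAATAAAcagtttaatttg
Prdx2, chr8:87498680-87498709, plus strand: acattggatgggAATAAAaactaaagtcaa
Prdx1, chr4:116373396-116373425, plus strand: tctgctctgcaaAATAAAtaggacttggcc
Prdx3, chr19:60939962-60939991, minus strand: ataaaaataaacATTAAAatatttgcgttt

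Such a hexamer was found in 9 of the 10 genes, Prdx6 being the exception, and in 77.5% of the 10386 tested genes with an annotated 3' UTR of at least 50 bases. A cytoplasmic polyadenylation element (TTTTAT or TTTTAAT on the transcript strand), the site at which CPEB proteins bind stored mRNAs, lay within the last 100 bases of 1 gene, Sod2, against 19.7% of those 10386 genes. It started 65 bases from the annotated end of Sod2 and is in capitals here.
Sod2, chr17:13210909-13210938, plus strand: aggtgagtgttgTTTTATtgtaaaatgcat
No match in the other 9 says only that these letters are not in this window of these transcript models, which the oocyte may not use. The 3' UTRs ranged from 60 bases in Prdx4 and 65 in Sod1 to 2948 in Sod2, with a median of 418 against 850 for all such genes. Transcripts of 9 of the 10 were shorter than the median of 2741 bases, Sod2 being the longer one. Of the other genes called at MII, Gpx4 had a 3' UTR of 221 bases, Prdx5 of 140, Prdx2 of 749 and Gpx1 of 204. Of those that did not pass the test, Prdx1 had 1566, Prdx6 1609 and Prdx3 615 bases. Sod2, with the longest, was called at MII, so the lengths of the 2 sets overlapped, and no relation to the response was tested.

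Sod1, the copper and zinc superoxide dismutase of the cytosol, lies at chr16:90220987-90226567 (mm9, plus strand). It had 1610 and 1559 FPKM in WT growing, 1533 and 1315 in WT GV and 32.2 and 34.0 in WT MII oocytes. In Zar1/2-null oocytes it had 1382 and 1276 FPKM in growing, 995 and 1022 in GV and 575 and 410 in MII oocytes. The Zar1/2-null libraries lay below the WT libraries at the growing and GV stages and far above them at MII, where the mean was 14.9-fold higher. The log2 fold change at MII was 3.83 (standard error 0.18, 95% interval 3.45 to 4.22, adjusted p = 2.28e-08, limma with Benjamini-Hochberg adjustment). At GV, Sod1 was lower by a log2 fold change of -0.49 (adjusted p = 0.0417, limma with Benjamini-Hochberg adjustment), a call lost without the ERCC scaling.

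Sod2, the manganese superoxide dismutase of the mitochondrial matrix, lies at chr17:13200705-13210985 (plus strand). Its levels were 18.7 and 20.4 FPKM in WT growing, 14.1 and 10.3 in WT GV and 3.69 and 3.55 in WT MII oocytes. The Zar1/2-null libraries had 20.6 and 18.5 FPKM in growing, 8.53 and 11.2 in GV and 9.78 and 7.41 in MII oocytes. The genotypes overlapped at the growing and GV stages and were separate at MII, with a mean 2.37-fold higher in Zar1/2-null oocytes (log2 fold change 1.04, standard error 0.19, adjusted p = 0.00121, limma with Benjamini-Hochberg adjustment). The log2 fold changes of Sod1 and Sod2 at MII were not tested against each other.

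Prdx1 and Prdx2 are closely related cytosolic peroxiredoxins that use thioredoxin, and they differed at MII. Prdx1 (chr4:116358149-116373427, plus strand) had 846 and 660 FPKM in WT MII and 944 and 765 FPKM in Zar1/2-null MII oocytes, and the libraries overlapped. Its log2 fold change was 0.19 (95% interval -0.26 to 0.63, adjusted p = 0.574, limma with Benjamini-Hochberg adjustment). In growing oocytes Prdx1 had 1879 and 1696 FPKM in WT and 1801 and 1462 in Zar1/2-null libraries, and in GV oocytes 1381 and 1012 against 1093 and 1115. The genotypes overlapped for Prdx1 at all 3 stages.

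Prdx2 (chr8:87493486-87498733, plus strand) started from a level like that of Prdx1, with 1417 and 1450 FPKM in WT growing and 1264 and 1130 FPKM in WT GV oocytes, but had 69.1 and 71.0 FPKM in WT MII oocytes. The Zar1/2-null libraries had 1319 and 1159 FPKM in growing, 1210 and 1175 in GV and 392 and 303 in MII oocytes. At MII the mean was 4.96-fold higher without ZAR1 and ZAR2 (log2 fold change 2.28, standard error 0.16, adjusted p = 7.84e-07, limma with Benjamini-Hochberg adjustment). At GV the 2 genotypes overlapped for Prdx2, with a log2 fold change of -0.00 (95% interval -0.36 to 0.35). There it was called higher without the ERCC scaling (0.45, adjusted p = 0.0197) and with median scaling (0.54, adjusted p = 0.0157, both limma with Benjamini-Hochberg adjustment). Annotated Prdx2 shares 181 bases with Rnaseh2a on the other strand, and Smart-seq2 reads carry no strand, so reads from that stretch cannot be told apart. The annotation also names the pseudogenes Prdx2-rs3 and Prdx6-ps2, whose reads the unique mapping could divide from those of Prdx2 and Prdx6.

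Prdx6 uses glutathione and lies at chr1:163170243-163181350 (minus strand). It was called lower in Zar1/2-null oocytes at both stages before maturation. Its levels were 9.07 and 9.13 FPKM in WT growing against 4.77 and 4.58 in Zar1/2-null growing oocytes, and 10.2 and 7.48 against 2.92 and 3.11 FPKM at GV. The libraries did not overlap at either stage, and the WT mean was 1.95-fold and 2.94-fold higher. In growing oocytes the granulosa and cumulus markers Cyp19a1 and Inha were also called lower, and the macrophage marker Cd68 higher, and the part of this in the result was not tested. The log2 fold change was -0.83 in growing (standard error 0.18, adjusted p = 0.00483) and -1.28 in GV oocytes (standard error 0.18, adjusted p = 0.000346, both limma with Benjamini-Hochberg adjustment). With the ERCC factors divided out the difference in growing oocytes no longer passed (log2 fold change -0.59, adjusted p = 0.0593, limma with Benjamini-Hochberg adjustment), and that at GV did (-0.96, adjusted p = 0.00871). At MII both genotypes were low, with 1.92 and 1.09 FPKM in WT and 1.34 and 1.04 FPKM in Zar1/2-null oocytes, and overlapped (log2 fold change -0.18, 95% interval -0.58 to 0.22).

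Prdx3 and Prdx5 are the mitochondrial peroxiredoxins, Prdx5 being also found in the cytosol and in peroxisomes. Prdx5 (chr19:6981187-6984596, minus strand) had 72.8 and 63.0 FPKM in WT growing, 74.0 and 63.9 in WT GV and 1.72 and 1.65 in WT MII oocytes. The Zar1/2-null libraries had 61.8 and 50.8, then 44.9 and 51.7, and then 33.8 and 23.3 FPKM. They lay below WT at the first 2 stages without passing the test, at GV with an adjusted p of 0.0522 (limma with Benjamini-Hochberg adjustment), and were 17.0-fold higher on average at MII. The log2 fold change at MII was 3.44 (standard error 0.19, adjusted p = 1.05e-07, limma with Benjamini-Hochberg adjustment). Prdx5 shares 409 annotated bases with Trmt112 on the other strand, and reads there cannot be assigned by strand.

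Prdx3 (chr19:60939954-60950459, minus strand), the peroxiredoxin of the mitochondrial matrix, had 83.1 and 73.1 FPKM in WT growing, 75.8 and 52.9 in WT GV and 1.22 and 1.01 in WT MII oocytes. In the Zar1/2-null libraries it had 63.7 and 53.0, then 46.5 and 58.4, and then 2.17 and 1.25 FPKM. At MII the WT libraries were the lower pair, by a log2 fold change of 0.34 (95% interval -0.14 to 0.82, adjusted p = 0.285, limma with Benjamini-Hochberg adjustment). In Zar1/2-null MII oocytes Prdx5 had 28.6 ± 7.44 FPKM and Prdx3 had 1.71 ± 0.655 FPKM (SD, n = 2 each), while in WT MII oocytes they had 1.68 ± 0.0510 and 1.11 ± 0.150 FPKM.

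Prdx4, the peroxiredoxin of the endoplasmic reticulum, lies at chrX:151758461-151775297 (minus strand). It had 21.8 and 21.4 FPKM in WT growing and 12.4 and 7.97 FPKM in WT GV oocytes. In WT MII oocytes it was listed at 0 in the first library and at 0.0674 FPKM in the second. Zar1/2-null oocytes had 23.1 and 16.9 FPKM in growing, 10.6 and 17.0 in GV and 14.3 and 13.0 in MII oocytes. The GV and MII libraries without ZAR1 and ZAR2 overlapped, and the genotypes overlapped at the growing and GV stages. On the log2(FPKM + 1) scale the difference at MII was 3.82 (standard error 0.24, adjusted p = 2.67e-07, limma with Benjamini-Hochberg adjustment). The added 1 FPKM holds this value down, and with the ERCC factor divided out it was 5.51.

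Gpx4, a selenoprotein that reduces lipid peroxides in membranes, lies at chr10:79509911-79519184 (plus strand). It had 87.4 and 105 FPKM in WT growing, 91.3 and 85.9 in WT GV and 0.986 and 0.662 in WT MII oocytes. In Zar1/2-null oocytes it had 107 and 109 FPKM in growing, 56.3 and 68.8 in GV and 49.5 and 44.5 in MII oocytes. On the log2(FPKM + 1) scale the genotype difference at MII was larger for Gpx4 than for any other of the 10 genes. The log2 fold change was 4.72 (standard error 0.16, 95% interval 4.36 to 5.08, adjusted p = 2.74e-09, limma with Benjamini-Hochberg adjustment). With the ERCC factors divided out it was 5.27, below the 5.51 of Prdx4. The mean of Gpx4 was 47.0-fold higher when the WT mean was set to the floor of 1 FPKM. At GV it was lower by a log2 fold change of -0.50 (adjusted p = 0.0281, limma with Benjamini-Hochberg adjustment), a call lost without the ERCC scaling.

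Gpx1, a selenoprotein peroxidase of the cytosol and mitochondria, lies at chr9:108241607-108242671 (plus strand). The WT libraries had 17.7 and 21.5 FPKM in growing, 14.8 and 11.7 in GV and 2.65 and 2.97 in MII oocytes. The Zar1/2-null libraries had 22.3 and 24.1, then 8.43 and 9.70, and then 8.53 and 6.31 FPKM. They lay above WT in growing, below it at GV and above it again at MII, where the mean was 2.64-fold higher (log2 fold change 1.13, standard error 0.18, adjusted p = 0.000448, limma with Benjamini-Hochberg adjustment). At GV the log2 fold change was -0.50 (adjusted p = 0.0412, limma with Benjamini-Hochberg adjustment), and this call was lost without the ERCC scaling, under which Gpx1 was instead called higher in growing oocytes.

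**Figure D2:**
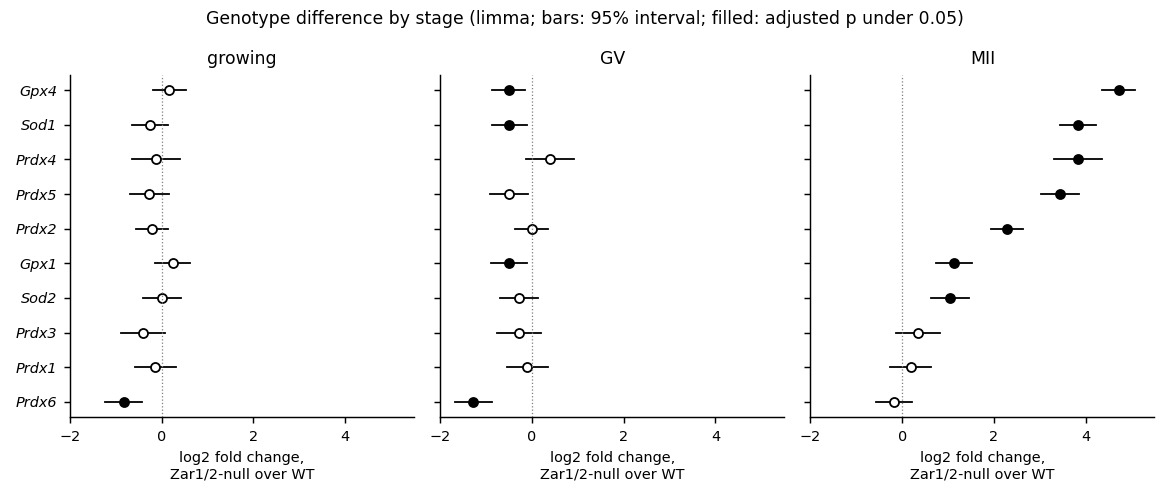
The x axes give the log2 fold change of Zar1/2-null over WT at each stage from limma on log2(FPKM + 1), with 95% intervals, for the 10 genes in the order of their values at MII, and filled points passed an adjusted p of 0.05. Only 1 gene is filled in growing oocytes and 4 at GV, all left of 0, while at MII 7 are filled, all right of 0, from 1.04 to 4.72.

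Over all 11502 genes, 21.5% were called higher and 10.3% lower in Zar1/2-null MII oocytes, against 7 and 0 of the 10. None of the 10 was lower at an unadjusted p under 0.05 either. The median log2 fold change was 1.71 over the 10 genes and 0.06 over all genes tested. It was 0.17 over the 4914 genes with at least 10 FPKM in WT GV oocytes, of which 1626 were higher and 733 lower. By the study's rule of more than 3-fold between mean FPKM values with a floor of 1 FPKM, 5 of the 10 were higher (Gpx4, Prdx5, Sod1, Prdx4 and Prdx2) against 7.49% of all genes, and 0 were lower against 1.32%. For 8 of the 10 the pair of Zar1/2-null libraries was above the pair of WT libraries, which was so for 43.5% of all genes, and for 0 it was below, against 27.8%. The 7 genes called at MII were the same 7, in the same direction, without the ERCC scaling, with median scaling and under every other alternative tried. A comparison of 2 libraries with 2 cannot reach an exact permutation p below 0.333, so these tests rest on a spread estimated from all 12 libraries. In these pooled oocytes, fewer cells contributing an mRNA and less of it in each cell cannot be told apart, nor can less mRNA and a shorter poly(A) tail.

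At the GV stage, 4 of the 10 were lower (Prdx6, Gpx1, Gpx4 and Sod1), against 40.6% of all genes, and 0 were higher against 2.83%, also at an unadjusted p under 0.05. The median log2 fold change was -0.39 over the 10 genes and -0.38 over all genes. Without the ERCC scaling Prdx6 remained lower, the calls of the other 3 were lost, and Prdx2 (log2 fold change 0.45) and Prdx4 (0.84) were called higher. The call of lower levels at GV thus held under either scaling for Prdx6 alone. It was also left with Prdx6 alone when either WT GV replicate 1 or Zar1/2-null GV replicate 1 was left out. In growing oocytes 1 of the 10 was lower, Prdx6, against 24.4% of all genes, and 0 were higher against 10.6%, also at an unadjusted p under 0.05.

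From growing to GV oocytes 4 of the 10 fell in WT (Prdx4, Sod2, Gpx1 and Prdx1) against 28.7% of all genes, and 5 fell in Zar1/2-null oocytes (Gpx1, Sod2, Gpx4, Prdx6 and Prdx1) against 55.9%. The largest of these, in Zar1/2-null oocytes, was that of Gpx1 from 23.2 ± 1.21 to 9.07 ± 0.896 FPKM (SD, n = 2 each). None rose, against 2.77% of all genes in WT and 4.76% in Zar1/2-null oocytes, also at an unadjusted p under 0.05. Without the ERCC scaling 0 of the 10 were called in WT, and in Zar1/2-null oocytes 2 were lower and 1 higher. In WT oocytes 0 calls were also left without WT growing replicate 2 or without WT GV replicate 2.

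The change from GV oocytes to those collected as MII separated the genotypes. In WT oocytes all 10 genes fell, as did 93.4% of all genes tested, and 0.104% rose, with a median log2 fold change of -3.74 against -1.28 over all genes and -2.19 over the 4914 genes with at least 10 FPKM in WT GV oocytes. Relative to its mean in WT GV oocytes, Prdx4 was at 0.330%, Gpx4 at 0.929%, Prdx3 at 1.73%, Sod1 at 2.32%, Prdx5 at 2.44% and Prdx2 at 5.85% at MII. The median of the 4914 genes was 18.8%, and Gpx1 (21.2%), Sod2 (29.6%) and Prdx1 (62.9%) were above it. The call of Prdx1 was lost without WT GV replicate 1 or without WT MII replicate 2. Prdx6, which had fewer than 10 FPKM, was at 17.0%.

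In Zar1/2-null oocytes 6 of the 10 fell (Prdx3, Prdx2, Sod1, Prdx6, Prdx5 and Gpx4), against 68.7% of all genes, and 0 rose, against 0.209% and also at an unadjusted p under 0.05, with a median log2 fold change of -0.58 against -0.72 over all genes. Prdx4 was at 98.8% of its GV mean, Sod2 at 87.2%, Gpx1 at 81.8%, Prdx1 at 77.4%, Gpx4 at 75.1%, Prdx5 at 59.2% and Sod1 at 48.8%, against a median of 37.7% over the same 4914 genes. Prdx3 was at 3.26% and Prdx2 at 29.2%. The order of the genes therefore differed between genotypes, Prdx4 having kept the least of its GV level in WT and the most in Zar1/2-null oocytes. Its place in WT rests on 0 and 0.0674 FPKM at MII. With a floor of 1 FPKM its MII mean in WT was 0.098 of its GV mean, and the lowest was Gpx4, at 0.011. In Zar1/2-null oocytes its GV and MII libraries overlapped, and its log2 fold change ran from -0.30 to 0.33 with 1 library left out. The call of Gpx4 was lost when any 1 of 9 libraries was left out (all but WT MII replicates 1 and 2 and Zar1/2-null GV replicate 1), and that of Prdx5 without Zar1/2-null MII replicate 2.

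**Figure D3:**
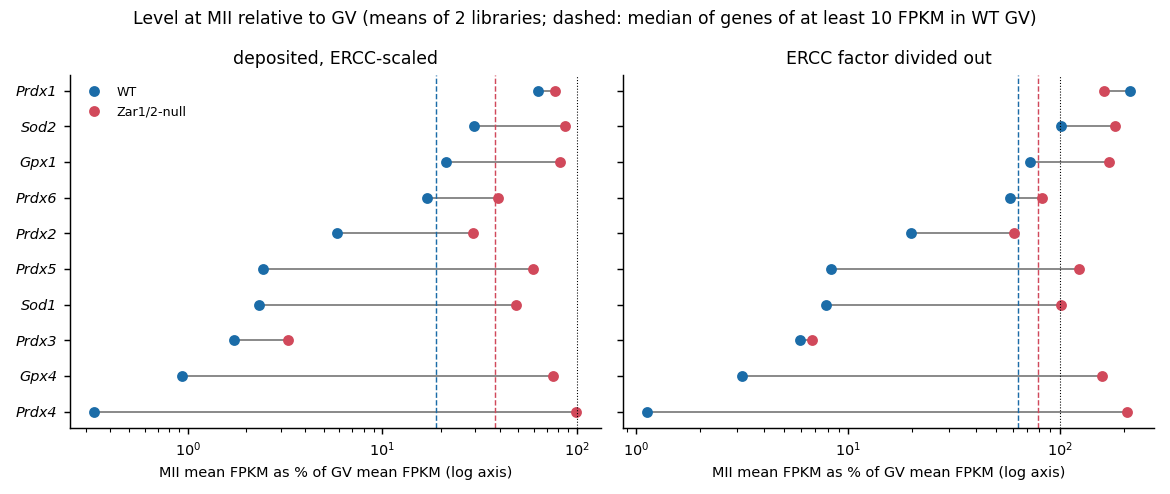
The log x axes give the mean FPKM at MII as a percentage of the mean at GV (2 libraries each) for the 10 genes, in WT (blue) and Zar1/2-null oocytes (red), from the deposited values on the left and with the ERCC factors divided out on the right, and dashed lines mark the median of the 4914 genes with at least 10 FPKM in WT GV oocytes. Prdx4 spans 0.330% to 98.8% on the left and 1.13% to 208% on the right, and Prdx3 stays below 7% in both genotypes and panels.

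Direction over maturation depended on the scaling. With the ERCC factors divided out, which takes each library relative to its own total, Prdx1 was higher at MII than at GV in WT oocytes (log2 fold change 1.09, adjusted p = 4.49e-05, limma with Benjamini-Hochberg adjustment), Sod2 was at 0.02 and the other 8 remained lower. In Zar1/2-null oocytes 5 genes were then higher at MII (Prdx1, Prdx4, Gpx1, Gpx4 and Sod2) and 2 lower (Prdx2 and Prdx3). Over all genes this scaling moved the median change from -1.28 to -0.43 in WT and from -0.72 to -0.28 in Zar1/2-null oocytes, and the share of calls that were higher from 0.112% to 29.3% and from 0.303% to 32.6%. The order of the 10 genes by the percentage of the GV level was the same under both scalings within each genotype. It could hardly change, since the scaling moves every gene of a library together.

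The difference between genotypes in the GV-to-MII change was tested as an interaction. It was positive for 8 of the 10 (all but Prdx1 and Prdx3), against 33.9% of all genes, and negative for 0 against 0.643%, also at an unadjusted p under 0.05. On the log2(FPKM + 1) scale the largest was that of Gpx4, at 5.22 (standard error 0.23, adjusted p = 5.25e-08, limma with Benjamini-Hochberg adjustment). Sod1 at 4.33, Prdx5 at 3.94 and Prdx4 at 3.43 followed. The added 1 FPKM holds down the value of Prdx4, which was at 0 and 0.0674 FPKM in WT MII oocytes. The median was 1.96 over the 10 genes and 0.48 over all genes tested. It was 0.65 over the 4914 genes with at least 10 FPKM in WT GV oocytes, with 2189 called positive and 20 negative. Without the ERCC scaling 7 of the 8 remained, and Prdx6 was lost. For Prdx1 the estimate was 0.28 (95% interval -0.35 to 0.92) and for Prdx3 0.62 (95% interval -0.06 to 1.30).

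The genes that supply electrons to these enzymes and the other members of the pathway were followed in 6 lists at MII, where 21.5% of all genes tested were higher and 10.3% lower in Zar1/2-null oocytes. The counts in these lists are small and no list is called apart from that background. Among 7 tested genes of the thioredoxin system, which reduces peroxiredoxins, 2 were higher and 1 lower, near those shares. Txn2, the mitochondrial thioredoxin, had 44.8 and 37.7 FPKM against 9.73 and 9.88 in WT (log2 fold change 1.96, adjusted p = 6.09e-05, limma with Benjamini-Hochberg adjustment). Sesn3, a sestrin, had 2.55 and 1.77 against 0.415 and 0.488 FPKM. Txn1, the cytosolic thioredoxin, was lower, at 13.3 and 9.83 against 21.6 and 17.7 FPKM (log2 fold change -0.72, adjusted p = 0.00708, limma with Benjamini-Hochberg adjustment), a call lost without WT MII replicate 1 (adjusted p = 0.0674) or Zar1/2-null MII replicate 2 (adjusted p = 0.0743).

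Of 12 tested genes for glutathione synthesis and reduction and NADPH supply, 3 were higher and 0 lower, against 21.5% and 10.3% of all genes. Glrx5, a mitochondrial glutaredoxin that serves iron-sulfur cluster assembly, had 86.9 and 65.2 FPKM against 4.76 and 4.68 FPKM in WT (log2 fold change 3.74, adjusted p = 1.52e-08, limma with Benjamini-Hochberg adjustment). Glrx3 had 1.15 and 0.538 FPKM against 0.0359 and 0.0580, and its call was lost without Zar1/2-null MII replicate 1. Gclm, the modifier subunit of the enzyme that limits glutathione synthesis, was the third. Among 3 tested genes of the other peroxidases, dismutase, catalase and copper chaperone list, 2 were higher. Gpx6 had 49.6 and 36.4 FPKM against 9.15 and 7.12 FPKM. It was also above WT in growing oocytes, at 122 and 98.0 against 36.9 and 31.5 FPKM. Ccs, which loads copper into SOD1, had 1.13 and 0.929 FPKM against 0.103 and 0.0812.

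Selenoprotein synthesis, on which Gpx1 and Gpx4 depend, had 7 tested genes, of which 1 was higher and 1 lower, near the same shares of all genes. Pstk, the kinase that phosphorylates the serine on selenocysteine tRNA, had 8.75 and 5.60 FPKM against 0.379 and 0.506 in WT MII oocytes. Sepsecs, the enzyme of the next step, was lower, at 0.340 and 0.428 against 1.58 and 2.18 FPKM. It was below WT before maturation as well, at 5.59 and 2.80 against 14.2 and 16.5 FPKM in growing oocytes. At GV it had 7.65 and 6.34 against 20.6 and 19.0 FPKM. Of 9 tested genes of NRF2 and its regulators and targets, 2 were higher and 1 lower, again near the 21.5% and 10.3% of all genes. Hmox2, the constitutive heme oxygenase, had 3.71 and 3.38 FPKM against 0.952 and 1.26. Keap1, which holds NRF2 back, had 0.596 and 0.694 against 0.178 and 0.294 FPKM, under the floor in both genotypes, and its call was lost without the filter on low values (adjusted p = 0.0672, limma with Benjamini-Hochberg adjustment) and without any 1 of the 4 MII libraries (adjusted p = 0.0784 to 0.204). Nfe2l2, which encodes NRF2, was lower at MII, at 0.112 and 0.276 against 1.92 and 1.18 FPKM. It was below WT before maturation as well, at 1.34 and 0.717 against 8.92 and 8.94 FPKM in growing oocytes. At GV it had 0.614 and 0.491 against 5.08 and 3.98 FPKM. Of 3 tested methionine sulfoxide reductases, Msra was higher, at 3.38 and 2.39 against 0.642 and 0.546 FPKM.

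**Figure D4:**
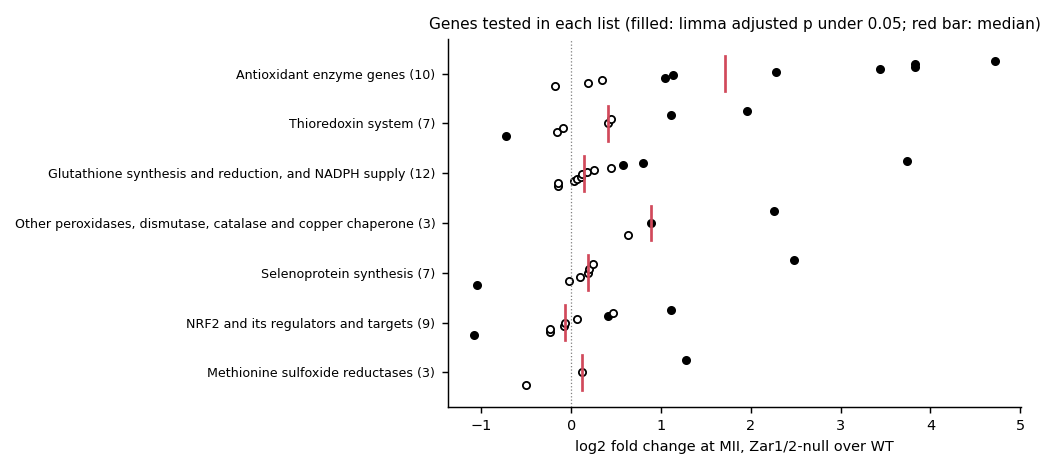
The x axis gives the log2 fold change at MII of Zar1/2-null over WT for each tested gene of the antioxidant enzyme genes and of 6 lists of related genes (number tested in brackets), with filled points at a limma adjusted p under 0.05 and a red bar at each median. The medians of the 6 lists lie between -0.07 and 0.89, and that of the 10 antioxidant enzyme genes at 1.71.

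The antioxidant response element, at which NRF2 binds, was searched for as TGACNNNGC on both strands of the RefSeq promoters (build GRCm38.p6, 250 bases before to 50 after the start). It was present in Prdx1 and Sod1 of the 9 genes with a promoter entry, and in 17.1% of 8147 tested genes. Both matches lay on the strand opposite to the gene, 133 and 56 bases before the start, and are in capitals as they read on the gene's strand. Any part of these matches in the levels of Prdx1 and Sod1 was not tested.
Prdx1, chr4:116685456-116685484, plus strand: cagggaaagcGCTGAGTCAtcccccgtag
Sod1, chr16:90220696-90220724, plus strand: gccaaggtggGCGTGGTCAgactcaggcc

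Each of the 10 genes was set beside the 5966 genes averaging 5 FPKM or more by the root mean square difference of their centred log2(FPKM + 1) profiles over the 12 libraries, a description that no test accompanies. The nearest profile to Gpx4 was that of Ndufb9 (0.15), to Sod1 that of Arl2 (0.11), to Prdx5 that of Lsm6 (0.15), to Prdx2 that of Apitd1 (0.12) and to Prdx4 that of Ldhb (0.25). Ldhb had 265 FPKM on average in WT MII and 2603 FPKM in Zar1/2-null MII oocytes. For Prdx3 it was Vdac3 (0.12), for Prdx1 Snrnp48 (0.09), for Prdx6 Clvs2 (0.18), for Gpx1 Ube2s (0.15) and for Sod2 Rnls (0.10). Within the 10, the closest pair was Gpx1 and Sod2 (0.19), followed by Prdx5 and Sod1 (0.31).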

How the data were processed

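Libraries were grouped by the genotype, stage and replicate number in their labels. Per the study's methods, the authors cut reads to 50 bp, aligned them with TopHat 2.1.1 (build mm9), retained those with a unique position, and obtained FPKM for UCSC gene models from Cufflinks 2.2.1. They deposited FPKM values multiplied by an ERCC factor, with WT growing oocytes of the same number as the reference. These factors were recovered here as those that return all entries to 6 significant digits.

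Group means of log2(FPKM + 1) were fitted over 12 libraries and 6 groups with limma 3.58.1 (R 4.3.3), using an intensity trend and Benjamini-Hochberg adjustment over 11502 genes (at least 1 FPKM in at least 1 library). Fold changes on this scale understate those of low genes. In simulated data with 200 of 11502 genes changed 6-fold at MII, 99.5% were recovered and 7 calls (3.40%) were false. The changed genes were drawn only from those well expressed in WT MII oocytes. Gpx1, Gpx4, Prdx3, Prdx4, Prdx5, Prdx6 and Sod2 lay below that level there, so the recovery does not cover them. Far fewer genes were changed than were called in the data, so the share of false calls may not carry over. Genes named outside the 10 were the targeted genes, defining markers, the nearest profiles, and up to 2 called genes per list and direction with the largest change at MII. Gclm, Prdx2-rs3, Prdx6-ps2, Rnaseh2a and Trmt112 were named outside this rule. The members and lists were chosen with earlier results of these data known. Sequences came from GENCODE and RefSeq.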

Additional observations from a re-analysis of the deposited data

Results flagged for a closer look

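For 8 of the 10 genes, the difference between Zar1/2-null and WT oocytes was not the same at MII as at GV. The test was the interaction term of the limma fit (Benjamini-Hochberg adjusted p under 0.05). Over all genes tested, this term was called positive for 33.9% and negative for 0.643%. The difference at MII minus that at GV, on the log2 scale, was 5.22 for Gpx4, 4.33 for Sod1, 3.94 for Prdx5, 3.43 for Prdx4, 2.29 for Prdx2, 1.63 for Gpx1, 1.32 for Sod2 and 1.10 for Prdx6. It kept its sign and its side of the threshold without the ERCC scaling for all of these but Prdx6. For Gpx4, Sod1, Gpx1 and Prdx6 the difference at GV was itself called lower, which for Gpx4, Sod1 and Gpx1 depended on the ERCC scaling. In groups of 2 libraries no single library can be tested as an outlier.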

How the results depend on the processing

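The alternatives were dividing out the ERCC factors, scaling to the median, a pseudocount of 0.1 FPKM, no filter on low values (18932 genes), the replicate number as a block, the 4 libraries of a stage alone, and leaving out each of the 12 libraries. The number of genes called between genotypes at MII was 7 under each of them. For the 453 single-gene values outside the left-out libraries, 360 kept direction and side of the threshold, 42 lost their call, 8 gained one and 43 changed sign, all 43 under the ERCC or median alternative.

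The total called at GV (4, all lower) became 2 with a pseudocount of 0.1, 2 without the filter and 1 with the libraries of the stage alone. From growing to GV, the total called in WT oocytes (4, all lower) became 0 without ERCC scaling, 0 with median scaling, 2 with the pseudocount and 2 without the filter, and that in Zar1/2-null oocytes (5, all lower) became 3 without ERCC scaling (2 lower, 1 higher), 2 with median scaling (1 lower, 1 higher) and 3 without the filter. Some totals stayed within 1.5 times while their directions changed. At GV, 1 was lower and 2 higher under both the ERCC and the median alternative, and in growing oocytes 0 were lower and 1 higher. From GV to MII in Zar1/2-null oocytes (6, all lower), 2 were lower and 5 higher without ERCC scaling and 2 lower and 6 higher with median scaling, and in WT oocytes (10, all lower) 8 were lower and 1 higher, and 6 lower and 1 higher. With 1 library left out, counts ranged from 1 to 5 at GV, from 0 to 4 and 3 to 6 for growing to GV in WT and Zar1/2-null, from 9 to 10 and 4 to 6 for GV to MII, and from 5 to 6 for the 3-fold rule. They stayed at 1 in growing oocytes, 7 at MII and 8 for the interaction.

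Without ERCC scaling, the log2 fold changes between genotypes that changed sign were, in growing oocytes, 0.15 for Prdx1, 0.074 for Prdx2, 0.15 for Prdx4, 0.014 for Prdx5 and 0.033 for Sod1, at GV 0.35 for Prdx1, 0.45 for Prdx2, 0.17 for Prdx3 and 0.14 for Sod2, and at MII -0.054 for Prdx1. From GV to MII they were 1.09 for Prdx1 and 0.017 for Sod2 in WT, and 0.68 for Prdx1, 0.28 for Prdx5, 0.72 for Gpx1, 0.65 for Gpx4, 0.0060 for Sod1 and 0.83 for Sod2 in Zar1/2-null oocytes, and the interaction of Prdx1 was -0.41. With median scaling they were, in growing oocytes, 0.15 for Prdx1, 0.078 for Prdx2, 0.15 for Prdx4, 0.018 for Prdx5 and 0.036 for Sod1, at GV 0.44 for Prdx1, 0.54 for Prdx2, 0.26 for Prdx3, 0.028 for Prdx5, 0.00076 for Gpx1, 0.032 for Gpx4, 0.048 for Sod1 and 0.22 for Sod2, and at MII -0.041 for Prdx1. From GV to MII they were 1.45 for Prdx1 and 0.34 for Sod2 in WT, and 0.97 for Prdx1, 0.56 for Prdx5, 0.97 for Gpx1, 0.93 for Gpx4, 0.29 for Sod1 and 1.08 for Sod2 in Zar1/2-null oocytes. From growing to GV in Zar1/2-null oocytes Prdx1 was at 0.068, and its interaction at -0.48. Genes not called from growing to GV were not followed over that step, so their sign changes are not listed. Without ERCC scaling the median of the antioxidant enzyme genes there went from -0.28 to 0.11 in WT oocytes. In Zar1/2-null oocytes it went from -0.51 to 0.00067, so genes not called over that step changed sign as well. The scaling itself moves every gene of a library together.

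With 1 library left out, sign changes among the values followed occurred within these ranges. Between genotypes in growing oocytes they were -0.29 to 0.012 for Prdx1, -0.34 to 0.092 for Prdx4 and -0.071 to 0.076 for Sod2. Between genotypes at GV they were -0.32 to 0.13 for Prdx1 and -0.084 to 0.077 for Prdx2, and at MII -0.42 to 0.063 for Prdx6. From GV to MII in Zar1/2-null oocytes they were -0.30 to 0.33 for Prdx4 and -0.36 to 0.00051 for Sod2.

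Deviations of same-numbered libraries correlated weakly across genes: of 15 pairs of groups, 4 had correlations above 0.1 (range -0.12 to 0.16). A correlation across genes cannot show a shift common to all genes of a library. Libraries of the same number share a reference in the ERCC scaling, so pairing by number is not excluded. With the replicate number as a block, counts were 1, 5 and 7 between genotypes at growing, GV and MII, 4 and 6 for growing to GV, 10 and 7 for GV to MII in WT and Zar1/2-null, and 8 for the interaction. A group size of 2 libraries and the lack of read counts limit all values below about 1 FPKM.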
